A study of Mus musculus with 22 samples.

Results

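The Krüppel-like factors (KLFs) described here were Klf2, Klf3, Klf4, Klf6, Klf10 and Klf13, 6 of the 55011 gene symbols in the count table. They were taken by name, but with earlier results of these data known, as were the gene lists below. Counts of members or list genes beside the share of all genes are therefore descriptions. All 6 passed the filter on low counts in every fit. They were followed in regulatory T cells (Tregs) of mouse visceral adipose tissue across all 8 groups of the study. Each library was RNA-seq of 1000 double-sorted cells from males of the strain C57BL/6 Foxp3.Cre-YFP, taken at ZT0, when the lights come on, and each was labelled WT or KO for Bmal1. The genotypes were compared on 3 diets, with 3 libraries per group: a lean diet at 18 weeks of age, 4 weeks of high-fat diet after 14 weeks of lean diet at 18 weeks of age, and 16 weeks of high-fat diet after 14 weeks of lean diet at 30 weeks of age. A further condition held Tregs recovered 9 weeks after adoptive transfer from mice that were 20 weeks old, with 2 libraries per genotype. All groups, WT included, carried the Foxp3.Cre-YFP allele, whose name places Cre and YFP under Foxp3. Which cells lost Bmal1, whether mice were pooled and what the transfer hosts were is not given in the sources used here. Nothing in the labels says that libraries of a group came from separate mice, so the p-values measure only the spread between these libraries, which may be technical.

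KLFs are transcription factors that share a set of zinc fingers at the C-terminal end and bind GC-rich and CACCC sequences, while their N-terminal ends recruit activators or repressors. In T cells, KLF2 maintains quiescence and the expression of homing receptors, KLF4 restrains the cell cycle, KLF3 acts as a repressor through CtBP, and KLF10 is induced by TGF-beta and linked to Foxp3. KLF6 is broadly expressed and rapidly induced by stimulation, and KLF13 is known for activating the chemokine gene Ccl5. BMAL1, the product of Arntl, pairs with CLOCK and binds E-boxes to drive the circadian oscillator.

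Promoter sequence is shown for 3 members: Klf6 and Klf4, whose RNA fell in the same comparison, because a canonical E-box lies upstream of both, and Klf3, whose RNA showed the largest fold change of the 6, because GC boxes crowd its window. The sequences are RefSeq's (GRCm38.p6), matched by symbol for 5 of the 6 genes, read 5′ to 3′ on the strand of the gene and shown up to the base before the annotated start of the gene. Capitals mark CACGTG in Klf4 and Klf6 and GGGCGG in Klf3.
Klf4, chr4:55532476-55532725, minus strand: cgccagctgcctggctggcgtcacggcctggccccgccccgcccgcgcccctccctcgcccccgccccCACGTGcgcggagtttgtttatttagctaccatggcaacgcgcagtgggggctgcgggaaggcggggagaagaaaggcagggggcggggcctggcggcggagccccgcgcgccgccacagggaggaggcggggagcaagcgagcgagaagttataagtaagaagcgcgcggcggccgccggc
Klf6, chr13:5861239-5861481, plus strand: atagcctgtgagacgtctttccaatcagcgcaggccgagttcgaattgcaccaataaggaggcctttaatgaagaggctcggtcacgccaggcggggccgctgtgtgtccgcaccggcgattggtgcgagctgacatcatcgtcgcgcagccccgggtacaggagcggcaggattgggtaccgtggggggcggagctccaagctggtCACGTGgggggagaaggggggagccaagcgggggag
Klf3, chr5:64803271-64803387, plus strand: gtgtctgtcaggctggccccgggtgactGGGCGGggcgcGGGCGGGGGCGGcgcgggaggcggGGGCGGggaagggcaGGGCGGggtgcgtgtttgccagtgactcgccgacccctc

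The E-box stood 182 to 177 bases before the RefSeq start of Klf4 and 43 to 38 bases before that of Klf6. Over the 32851 promoter windows of 250 bases in the same table, searched on both strands, 6.02% held CACGTG. Klf2, Klf3 and Klf13 had none in the same window. Klf10 had no promoter sequence there and was not searched for any motif. The GC box GGGCGG, a letter string that KLF and SP proteins can bind, was found 6 times before the RefSeq start of Klf3, 4 times before that of Klf4, 3 times for Klf13, 2 times for Klf2 and once for Klf6, and 32.7% of all windows held it. Of the 6 matches of Klf3, 5 lie in the stretch printed above, and the other, 89 to 84 bases before the RefSeq start, lies inside the Klf3 gene as GENCODE M21 places it. The MEF2 motif, of the kind through which ERK5 signalling reaches Klf2, was in the Klf2 window 118 to 109 bases before its start and in 3.2% of all windows. None of the windows of the 5 members searched held the REV-ERB motif AGGTCA (14% of all windows), the AP-1 motif TGANTCA (6.75%) or the CRE motif TGACGTCA (1.55%), which says only that these letters are not there. The motifs CCACCC (28.1% of windows) and CCAAT (33.8%) were also searched, and CCAAT occurred 4 times upstream of Klf6. These are matches of letters, with no measurement of binding.

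In mm10 with the GENCODE M21 annotation, Klf2 (ENSMUSG00000055148) lies on chromosome 8 from 72319033 to 72321656, Klf3 (ENSMUSG00000029178) on chromosome 5 from 64803388 to 64832901, and Klf4 (ENSMUSG00000003032) on chromosome 4 from 55527143 to 55532466. Klf6 (ENSMUSG00000000078) lies on chromosome 13 from 5861482 to 5870394, Klf10 (ENSMUSG00000037465) on chromosome 15 from 38291463 to 38300706, and Klf13 (ENSMUSG00000052040) on chromosome 7 from 63886351 to 63938915. No annotated exon of another gene overlapped an exon of Klf2, Klf4, Klf6, Klf10 or Klf13. In Klf3, 404 exonic bases were shared with Gm20033 on the opposite strand, and since the kit does not mark strand, reads there cannot be told apart.

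The 18 diet libraries held 1955940 to 3467019 counts each, and the 4 from transfer 4814337 to 5990319. A gene with 3 counts, the limit that a count of 0 allows, stood at 0.554 to 1.55 CPM (the count after TMM scaling of all 22 libraries to equal size), which covers counting error only. Nr1d1, a direct BMAL1 target, was at 25.75 to 44.04 CPM in the lean WT libraries and 0.901 to 4.40 CPM in the lean KO libraries, and at 73.14 to 107.5 against 0.770 to 1.54 CPM after transfer, in the direction of the labels in both. Its values at 4 and 16 weeks are not given here. Arntl itself was at 54.19 to 103.6 CPM over the 22 libraries. The mean sum of 6 clock genes was higher in KO than in WT on lean diet (321.1 against 245.5 CPM), at 4 weeks (376.2 against 258.6) and at 16 weeks (273.6 against 221.4). After transfer it was 459 against 354.5 CPM. Foxp3 was at 395.5 to 706.3 CPM and Cd3e at 695.4 to 985.3 CPM in the 22 libraries. Summed group means of markers of B cells, macrophages and dendritic cells reached 24.95, 12.68 and 29.27 CPM at most, and those of mesothelial, fat and red blood cells 1.36 CPM at most. Other lists stood higher: endothelial and stromal markers reached 162.4 and 36.51 CPM, both in 16 week KO. Markers of cytotoxic and NK cells reached 336.4 CPM in 16 week WT, where 1 library was at 656.4 CPM.

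Per length of exon, Klf6 was by far the most abundant member, and Klf3 and Klf4 were the least abundant in the 6 diet groups. In lean WT Tregs the mean level per kilobase of exon (CPM divided by the length of all annotated exons) was 337.3 for Klf6, 51.04 for Klf13, 22.71 for Klf10, 16.82 for Klf2, 7.59 for Klf4 and 7.39 for Klf3. The last pair did not differ by more than the spread of either gene between libraries. The place of Klf3 depends on the length used, 11243 exonic bases against 1847 in Klf2 and 3049 in Klf4. In CPM, not divided by length, the lean WT mean of Klf3 was 83.1, above Klf2 (31.06) and Klf4 (23.13). Of the 17 KLF genes in the mouse annotation list, 12 passed the low-count filter of the diet fit. Those beyond the 6 members were Klf7, Klf8, Klf9, Klf11, Klf12 and Klf16, while Klf1, Klf5, Klf14, Klf15 and Klf17 stayed between 0 and 3.85 CPM in every library. After transfer, Klf3 was at 0.640 CPM per kilobase in WT and 0.409 in KO, below Klf8 and Klf9 in both, as the heat map of the family shows. Klf4 was then above Klf2, at 17.11 against 14.93 in WT and 17.43 against 17.03 in KO.

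**Figure D1:**
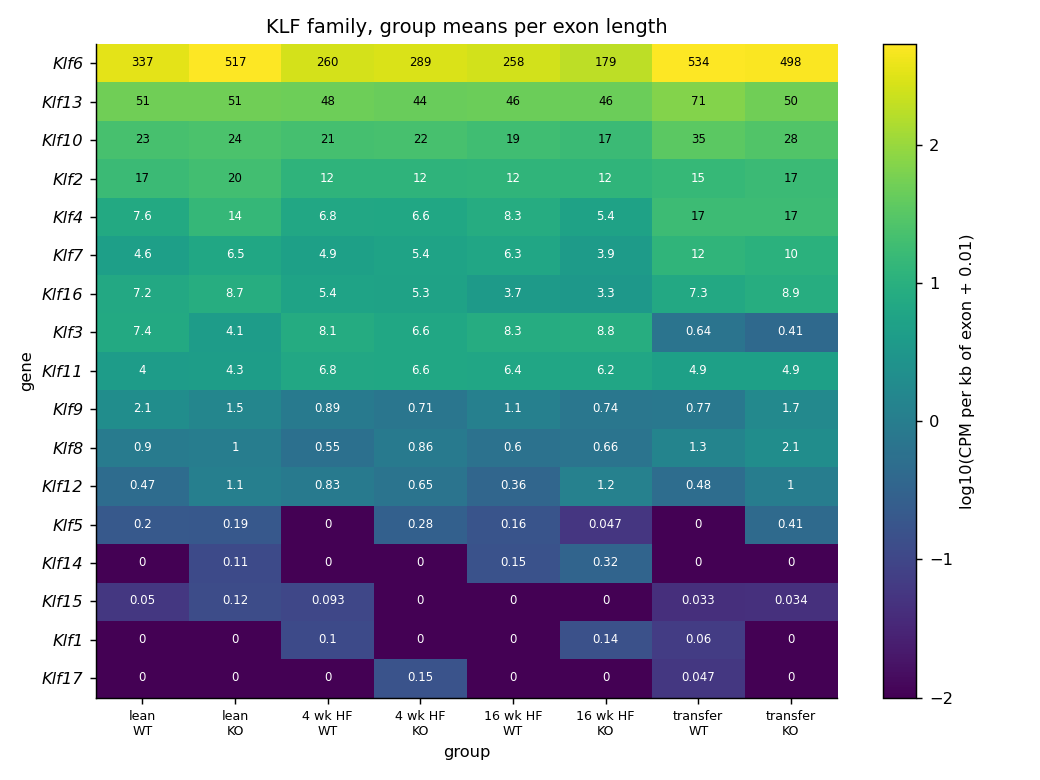
Mean level of the 17 KLF genes in each of the 8 groups, in CPM per kilobase of exon (numbers in the cells), with colour on a log10 scale after adding 0.01; HF is high-fat diet. Klf6 led in every group, and Klf3 was at 4.06 to 8.80 in the 6 diet groups and at 0.640 and 0.409 after transfer.

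Klf6, the stimulus-responsive member, was lower after 16 weeks of high-fat diet than on lean diet in KO Tregs, by 2.89 fold, and the same held for Klf4, by 2.68 fold. In lean KO libraries Klf6 was at 2732, 1906 and 2176 CPM, and in KO libraries after 16 weeks of high-fat diet at 582.2, 910.7 and 868.4 CPM. The lowest lean library was above the highest high-fat library. The log2 fold change was -1.53 ± 0.20 (SE, edgeR quasi-likelihood test, adjusted p = 0.00012). Fewer cells with high Klf6 and less Klf6 RNA per cell cannot be told apart in these bulk libraries. Klf4, the brake on the cell cycle, was at 47.26, 43.02 and 40.98 CPM in lean KO libraries and at 18.28, 22.15 and 8.95 CPM in KO libraries after 16 weeks. These ranges did not overlap either, and Klf4 fell by 1.42 ± 0.28 on the log2 scale (edgeR adjusted p = 0.00354). So 2 of the 6 members fell and none rose in this comparison, in which 5.95% of the 11698 genes tested were called and 3.59% were called lower. The median log2 fold change of the 6 was -0.62 and that of all genes was 0.0015. Mice on 16 weeks of high-fat diet were 30 weeks old and lean mice 18 weeks old, so diet and age cannot be told apart here.

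**Figure D2:**
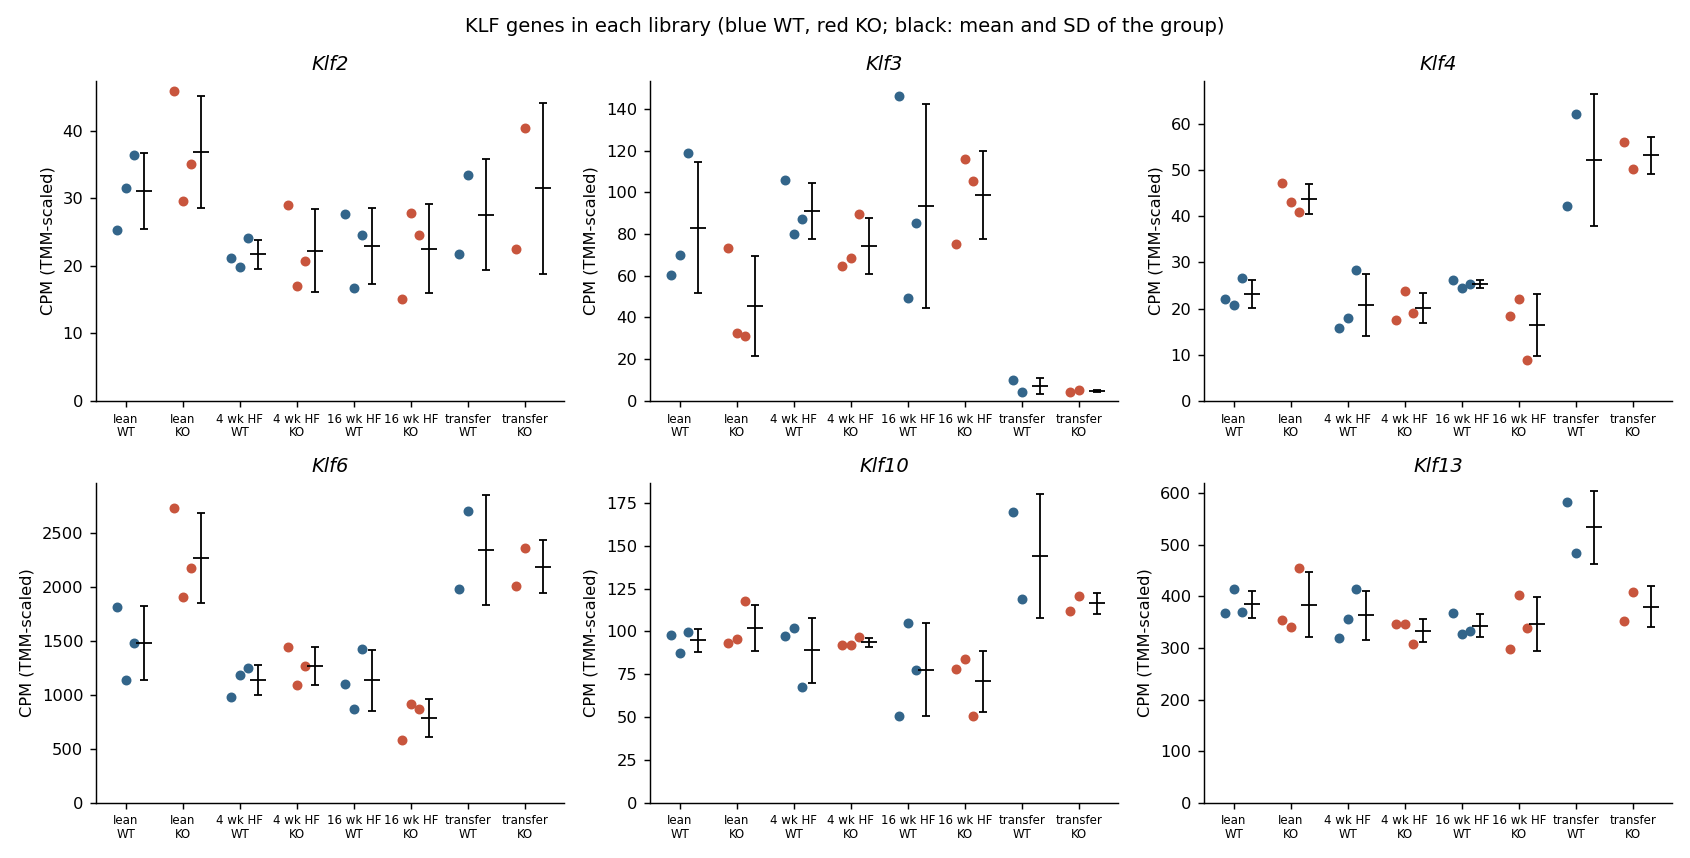
CPM of the 6 KLF genes in each of the 22 libraries (blue WT, red KO) with the mean and SD of each group in black; HF is high-fat diet. The group means of Klf6 and Klf4 were highest in lean KO and after transfer and lowest in the 16 week KO group, and all 4 transfer libraries lay below all 18 diet libraries for Klf3.

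The other members gave smaller differences in KO Tregs after 16 weeks, none past the threshold. Klf2, the quiescence factor, was at 45.80, 29.55 and 35.12 CPM on lean diet and at 15.12, 27.78 and 24.60 CPM after 16 weeks (log2 fold change -0.72 ± 0.26, edgeR adjusted p = 0.115). Klf10, the TGF-beta-induced member, was at 93.43 to 117.5 CPM on lean diet and at 50.48 to 84.08 CPM after 16 weeks (-0.53 ± 0.22, adjusted p = 0.183). Klf13 overlapped between the groups, with means of 383.8 ± 62.72 and 346.1 ± 52.78 CPM (SD, n = 3 each; edgeR adjusted p = 0.587). The repressor Klf3 went the other way in its values, with 73.28, 32.66 and 31.07 CPM on lean diet and 75.23, 116 and 105.4 CPM after 16 weeks. Its log2 fold change was 1.10 ± 0.34 (edgeR adjusted p = 0.0615), and the call turned on the library and on the fit. It passed without lean KO replicate 1 (1.62, adjusted p = 0.0163) and, with every library kept, in DESeq2 (adjusted p = 0.0249), in edgeR with only the 2 groups (adjusted p = 0.0287) or with the replicate block (adjusted p = 0.0483), and with no low-count filter (adjusted p = 1.3e-06). Ranges did not overlap for 5 of the 6 members, 4 of them lower and Klf3 higher, where 25% of all genes tested had ranges that did not overlap, 12.4% higher and 12.5% lower.

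In WT Tregs none of the 6 members was called between 16 weeks of high-fat diet and lean diet (edgeR, 0.0855% of all genes called), none had an unadjusted p under 0.05 (8.76% of all genes), and DESeq2 called none (0.786%). Here and below, shares for DESeq2 are its calls divided by the number of genes in the edgeR fit, and not by the genes that DESeq2 itself tested. Klf6 was at 1820, 1140 and 1483 CPM in lean WT libraries and at 1104, 869.4 and 1428 CPM after 16 weeks, with overlapping ranges (log2 fold change -0.40 ± 0.20, edgeR adjusted p = 0.581). Klf4 was at 22.02, 20.77 and 26.59 CPM on lean diet and 26.22, 24.44 and 25.25 CPM after 16 weeks, where the 3 high-fat libraries lay inside the lean range (0.11 ± 0.27, adjusted p = 0.954). Averaged over both genotypes, Klf6 fell by 0.97 ± 0.14 (edgeR adjusted p = 0.000296) and Klf4 by 0.65 ± 0.19 (adjusted p = 0.0469) on the log2 scale, 2 of 6 members beside 6.63% of all genes called and 3.72% called lower. The call of Klf4 in this average was lost in 11 of the 12 fits that left out 1 library, with adjusted p up to 0.108, with the replicate number as a block (adjusted p = 0.0627) and with no low-count filter (adjusted p = 0.054).

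The difference between the genotypes in the response to 16 weeks of diet was tested as an interaction, and it did not pass for any member in edgeR, nor for any gene (0%). At an unadjusted p under 0.05 there were 2 members, Klf6 (-1.13 ± 0.28, edgeR adjusted p = 0.236) and Klf4 (-1.53 ± 0.39, adjusted p = 0.242), where 8.49% of all genes were under it. DESeq2 called 1 of them, Klf6, with an adjusted p of 0.0366, and 0.231% of all genes. A response of Klf6 or Klf4 particular to KO Tregs is therefore not shown by the edgeR test. The interactions of 4 weeks with lean diet and of 16 with 4 weeks also gave no called member (edgeR, 0% of all genes), 1 member each at an unadjusted p under 0.05 (4.56% and 6.7% of all genes), and none by DESeq2 (0% and 0.00855%).

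**Figure D3:**
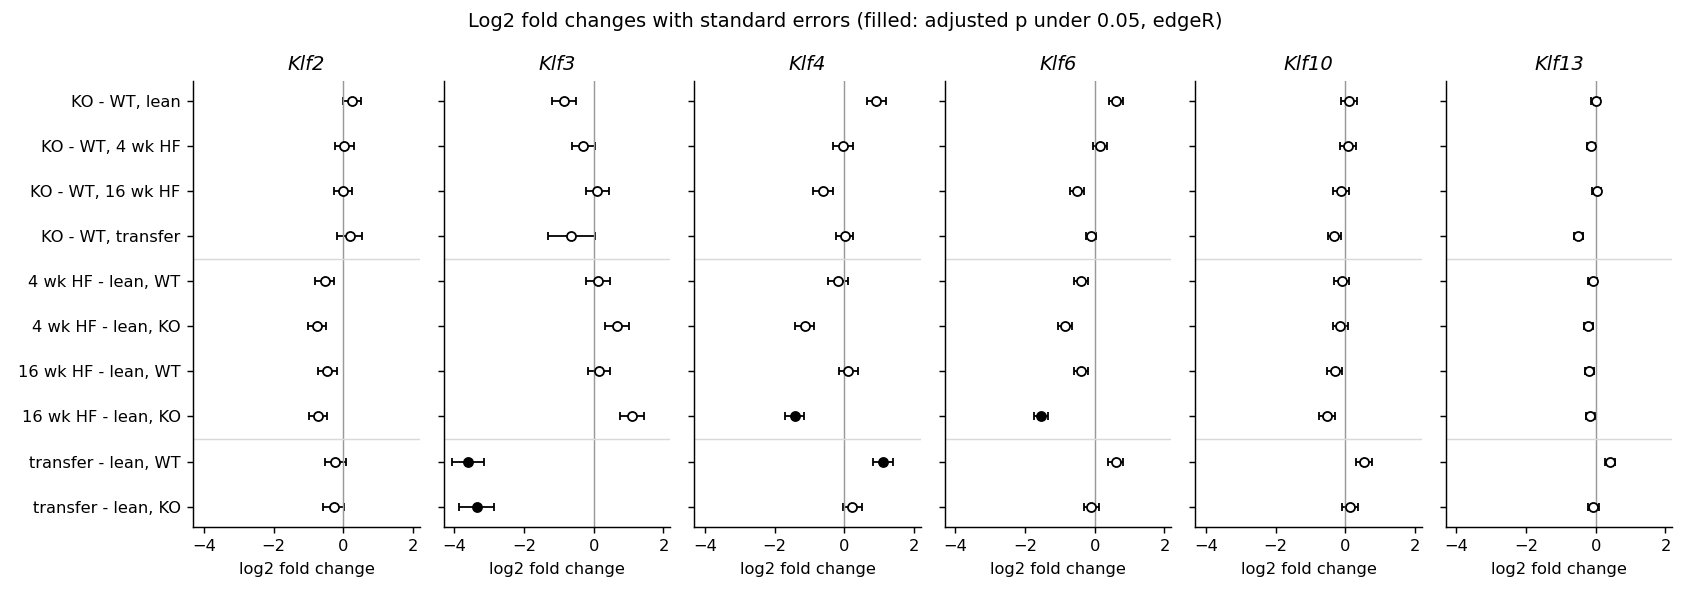
Log2 fold changes of the 6 KLF genes in 10 comparisons with their standard errors; filled points have an adjusted p under 0.05 in edgeR. The filled points are Klf6 and Klf4 at 16 weeks of high-fat diet against lean diet in KO Tregs (-1.53 and -1.42), Klf3 after transfer in both genotypes (-3.61 and -3.36) and Klf4 after transfer in WT (1.12).

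The lean KO libraries were also the ones in which Klf6 and Klf4 were highest among the diet groups. On lean diet, Klf4 was higher in all 3 KO libraries than in any WT library (43.75 ± 3.21 against 23.13 ± 3.07 CPM, SD, n = 3 each), and so was Klf6 (2271 ± 421 against 1481 ± 340.2 CPM). The ranges of 2 of the 6 members did not overlap and both were higher, beside 13.1% of all genes not overlapping and 6.92% higher. Neither passed the edgeR threshold: the log2 fold change was 0.92 ± 0.27 for Klf4 (adjusted p = 0.41) and 0.61 ± 0.20 for Klf6 (adjusted p = 0.471). Klf3 had the lower mean in KO, 45.67 ± 23.92 against 83.10 ± 31.41 CPM, with overlapping ranges (-0.85 ± 0.34, adjusted p = 0.597). In all, 0 of 6 members were called between the genotypes on lean diet by edgeR, where 0.0427% of all genes were called. An unadjusted p under 0.05 was found for 3 members and 7.17% of all genes, and DESeq2 called no member and 0.197% of all genes.

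At 16 weeks the values of Klf4 were on the other side. Each of the 3 KO libraries (18.28, 22.15 and 8.95 CPM) was below each of the 3 WT libraries (24.44 to 26.22 CPM), with a log2 fold change of -0.61 ± 0.28 (edgeR adjusted p = 0.517). It was the only member of the 6 whose ranges did not overlap there, beside 14% of all genes not overlapping and 8.28% lower. Klf6 overlapped, with 582.2 to 910.7 CPM in KO and 869.4 to 1428 CPM in WT (-0.51 ± 0.20, adjusted p = 0.403). By edgeR 0 of 6 members were called, beside 0.0427% of all genes. There were 2 members and 9.15% of all genes at an unadjusted p under 0.05, and DESeq2 called no member and 0.376% of all genes. No member was called after 4 weeks of high-fat diet (0.0684% of all genes) or in the mean over the 3 diets (0.18%). No member had an unadjusted p under 0.05 in either (4.62% and 7.39% of all genes), and DESeq2 called none (0.0598% and 0.291%).

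After 4 weeks of high-fat diet, the values of Klf6 in KO Tregs lay between the lean and the 16 week levels, and those of Klf4 and Klf2 overlapped with the 16 week levels. Klf6 was at 1443, 1093 and 1270 CPM in KO libraries after 4 weeks, each below all 3 lean KO libraries (log2 fold change -0.85 ± 0.20, edgeR adjusted p = 0.365). Klf4 was at 17.60, 23.73 and 18.98 CPM (-1.13 ± 0.27, adjusted p = 0.385) and Klf2 at 28.96, 17.00 and 20.77 CPM (-0.75 ± 0.26, adjusted p = 0.533). Those were the 3 members of 6 whose ranges did not overlap with lean KO, all lower, beside 12.9% of genes not overlapping and 6.1% lower. edgeR called none of them and no other gene (0%) in KO, in WT or in the mean of genotypes. At an unadjusted p under 0.05 there were 3 members in KO, 3 in the mean and none in WT, beside 7.15%, 8.04% and 5.59% of all genes. DESeq2 called Klf6 (adjusted p = 0.0252) and Klf4 (adjusted p = 0.0454) in KO, Klf6 in the mean (adjusted p = 0.00917) and none in WT, beside 0.188%, 0.402% and 0% of all genes.

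In WT Tregs the differences after 4 weeks were smaller in their values. Klf6 was at 982.3, 1189 and 1248 CPM (log2 fold change -0.39 ± 0.20, edgeR adjusted p = 0.893) and Klf4 at 15.89, 17.91 and 28.42 CPM (-0.18 ± 0.28, adjusted p = 0.986), both overlapping with lean WT. Klf2, at 19.85 to 24.08 CPM, was the 1 member of 6 whose 3 libraries all lay below the lean WT range of 25.23 to 36.39 CPM, beside 10.9% of all genes not overlapping and 5% lower (-0.53 ± 0.27, adjusted p = 0.893). From 4 to 16 weeks edgeR called no member in KO (1.64% of all genes), in WT (0%) or in the mean (2.12%). At an unadjusted p under 0.05 there was 1 member in KO, none in WT and 1 in the mean, beside 13.7%, 7.56% and 13.8% of all genes. The KO value of Klf6 was -0.68 ± 0.20 (edgeR adjusted p = 0.0955, DESeq2 adjusted p = 0.0417), and DESeq2 called no other member in these 3 comparisons (2.8%, 0.231% and 3.3% of all genes). Klf6 and Klf10 were the 2 of 6 whose KO ranges did not overlap between 4 and 16 weeks, both lower at 16, beside 19.5% of all genes not overlapping and 10.6% lower.

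The level of Klf6, and less closely that of Klf4, ran with those of immediate early genes. Such genes are transcribed within minutes of a stimulus and include Fos, Jun and Egr1. The list held 24 such genes and none of the 6 members. Its summed level was 35840 to 37640 CPM in lean KO libraries, 19270 to 31510 in lean WT, 22690 to 26060 in WT and 23800 to 30010 in KO after 4 weeks, and 19960 to 22920 in WT and 15050 to 17870 in KO after 16 weeks. Lean KO and 16 week KO, the groups between which Klf6 and Klf4 fell, were thus also the highest and the lowest diet groups for this list. In that comparison 15 of the 24 genes fell and none rose, with a median of -1.02, beside 3.59% of all genes called lower. Among those that fell were Fos (-2.32 ± 0.23, edgeR adjusted p = 6.13e-06), Jun (-1.84 ± 0.24, adjusted p = 8.95e-05) and Dusp1 (-1.22 ± 0.16, adjusted p = 0.000134). The part of this shift in the values of Klf6 and Klf4 was not tested. Over the 18 diet libraries, Pearson's correlation of log2 CPM with the log2 sum of the list was 0.896 for Klf6 and 0.645 for Klf4. It was 0.545 for Klf10, 0.513 for Klf2, 0.234 for Klf13 and -0.597 for Klf3. With the log2 sum of 11 heat shock genes it was 0.677 for Klf2, 0.656 for Klf6 and 0.421 for Klf4. For Klf13, Klf3 and Klf10 that value was 0.173, 0.058 and -0.067. Klf2 thus ran more closely with the heat shock sum than with the immediate early sum.

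**Figure D4:**
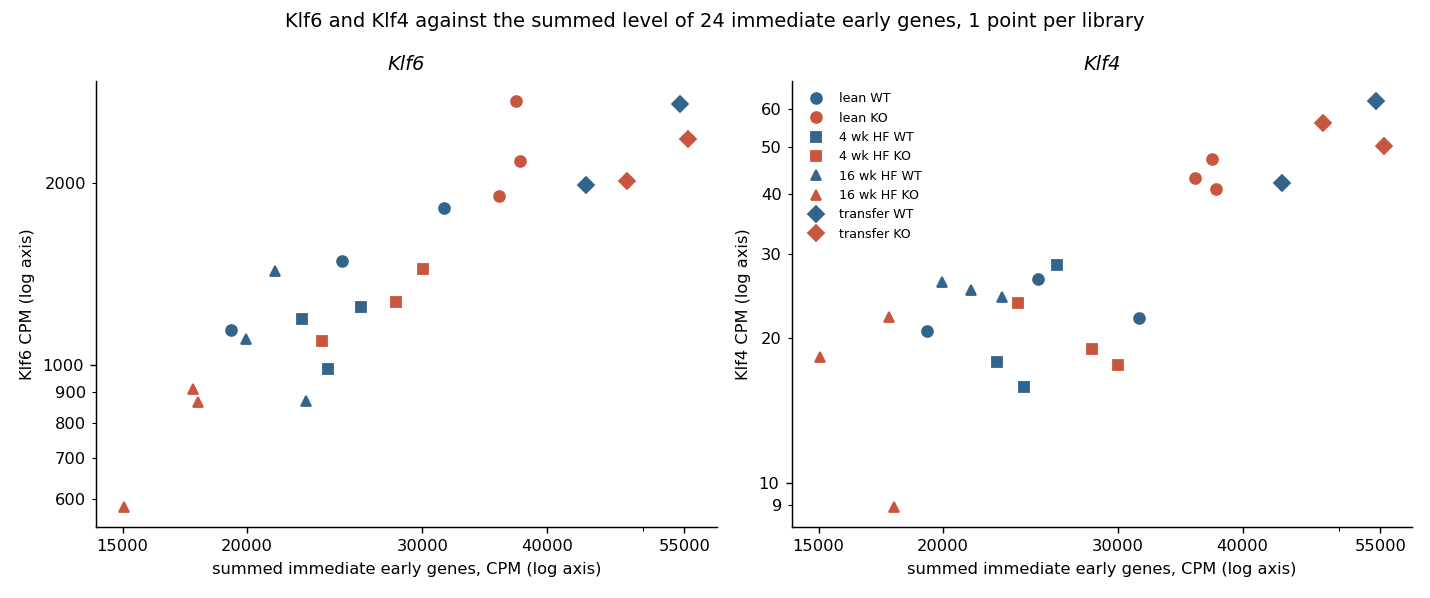
Klf6 (left) and Klf4 (right) in CPM against the summed CPM of 24 immediate early genes, 1 point per library, both axes logarithmic; HF is high-fat diet. The 3 KO libraries after 16 weeks of high-fat diet (15050 to 17870 on the horizontal axis) lie at the left and the lean KO and transfer libraries (35840 to 55510) at the right, where Klf6 was at 1906 to 2732 CPM.

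Among the summed markers of other cell types, those of endothelial and of cytotoxic and NK cells did not overlap between lean KO and 16 week KO libraries. The cytotoxic and NK sum was 175.2 to 298 CPM in lean KO and 116 to 138.9 CPM in 16 week KO, in the direction of Klf6 and Klf4, with Cd8a at 0 in both groups and none of its measured genes called. The summed level of 6 endothelial markers was 57.39 ± 17.55 CPM in lean KO and 162.4 ± 42.78 CPM in 16 week KO (SD, n = 3), and Pecam1 (1.23 ± 0.33, edgeR adjusted p = 0.0302) and Cldn5 (4.29 ± 1.03, adjusted p = 0.0156) rose. Pecam1 is also expressed by T cells. Cdh5 and Tek were at 0 in all lean KO libraries, while each of the 6 markers had counts in the 16 week KO group. Stromal markers summed to 4.89 ± 0.66 CPM in lean KO and 36.51 ± 57.93 CPM in 16 week KO, where replicate 1 stood at 103.4 CPM. That library also had the highest endothelial sum (206 CPM) and the lowest Klf6 (582.2 CPM) of all 22 libraries. Heat shock genes summed to 7375 ± 1818 CPM in lean KO and 5942 ± 61.03 CPM in 16 week KO, with 0 of 11 called by edgeR. In lean KO the sum was 9472 CPM in replicate 1 and 6238 and 6416 CPM in replicates 2 and 3. Lean KO replicate 1 also had the highest Klf6 (2732 CPM) and Klf2 (45.80 CPM) of all libraries. Of 10 genes of Treg identity 5 fell between these KO groups, beside 3.59% of all genes called lower. They were Pparg (-2.26 ± 0.45, edgeR adjusted p = 0.00471), Klrg1 (-1.76), Il1rl1 (-1.25), Il2ra (-1.13) and Gata3 (-0.73), while Foxp3 had a value of 0.01. The part of these in the values of the KLF genes was not tested. Leaving out any 1 of the 6 libraries kept the calls of Klf6 (-1.64 to -1.36) and Klf4 (-1.68 to -1.11).

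By a search for the genes of most like pattern over the 18 diet libraries, Klf6 had Dusp1, Jun and Fos beside it. The measure was Pearson's correlation of log2 CPM among 9318 genes with a mean of at least 5 CPM, and it is a description, since all genes of a library share its RNA and its depth. It was 0.952 for Dusp1, 0.939 for Jun and 0.930 for Fos, and 0.803, 0.791 and 0.689 after the mean of each group was taken out. The nearest genes to Klf4 were Mcub (0.834), Znhit2 (0.789) and Ier3ip1 (0.782), which dropped to 0.541, 0.494 and 0.442 within groups. Klf2 was nearest to Atf4 (0.849), Tsc22d3 (0.848), the gene of the glucocorticoid-induced leucine zipper protein, and Dnajb1 (0.798), a heat shock co-chaperone. Klf10 was nearest to Jup (0.897), Nucb1 (0.863) and Csf1 (0.841), and Klf13 to Ubxn6 (0.852), Ptpn18 (0.843) and Rpl27 (0.792). Klf6 and Klf4 themselves correlated at 0.700 over the 18 libraries and at 0.026 within groups, so their likeness lay between the groups and not among the libraries of a group. Klf2 and Klf6 correlated at 0.756 over all 18 and at 0.635 within groups, while Klf2 and Klf3 did so within groups only (0.700, against -0.062 over all 18).

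Klf3 had the largest fold change of any member. It was 12.2 fold lower in WT Tregs recovered after transfer than in lean WT Tregs and 10.3 fold lower in KO Tregs, while the other 5 members were within 2.17 fold in both genotypes. The transfer libraries stood at 9.96 and 4.43 CPM in WT and at 4.19 and 5.00 CPM in KO, from 19 to 44 counts. The lean libraries stood at 60.55, 69.77 and 119 CPM in WT and at 73.28, 32.66 and 31.07 CPM in KO. Across all 18 diet libraries Klf3 ran from 31.07 to 146.2 CPM with a median of 77.72, so the lowest of them was 3.12 times as high as the highest transfer library. The log2 fold change was -3.61 ± 0.47 in WT (edgeR adjusted p = 3.65e-05) and -3.36 ± 0.49 in KO (adjusted p = 0.000215). Leaving out any 1 library kept both calls, with values from -4.26 to -3.10 in WT and from -3.57 to -2.84 in KO.

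In WT this made 2 of 6 members called, Klf3 lower and Klf4 higher, beside 10.5% of the 12523 genes tested (4.63% higher and 5.84% lower). In KO it was 1 of 6, beside 3.35% of all genes (2.14% lower). The transferred cells differed from the lean ones in their host, in age (20 against 18 weeks), in depth and in the number of libraries. The diet of the transfer hosts is not given in the sources used here, so it may differ too, as may the library batch. None of these can be told apart from transfer itself. Both transfer comparisons use the same lean libraries as the diet comparisons, so their values are given side by side and not as separate evidence.

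Klf4 was the member that rose after transfer in WT Tregs. Its transfer WT libraries stood at 42.12 and 62.23 CPM against 22.02, 20.77 and 26.59 CPM in lean WT, with no overlap (log2 fold change 1.12 ± 0.28, edgeR adjusted p = 0.0137). The call was lost without transfer WT replicate 2 (0.81, adjusted p = 0.191) and without lean WT replicate 2 (1.04, adjusted p = 0.0632). In KO Tregs the transfer libraries stood at 56.05 and 50.24 CPM and the lean ones at 40.98 to 47.26 CPM, also without overlap (0.23 ± 0.28, adjusted p = 0.732). Both genotypes therefore reached a like level after transfer (52.17 ± 14.22 CPM in WT and 53.14 ± 4.11 CPM in KO, SD, n = 2 each) from lean levels that differed in their values.

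For Klf6, Klf10 and Klf13 the WT transfer libraries were above all lean WT libraries, with none past the threshold. Klf6 was at 1983 and 2706 CPM after transfer (log2 fold change 0.60 ± 0.22, edgeR adjusted p = 0.0786), and without lean WT replicate 1 it passed (0.79, adjusted p = 0.0308). Klf10 was at 169.8 and 118.7 CPM (0.54 ± 0.24, adjusted p = 0.153), and Klf13 at 584.2 and 483.4 CPM (0.41 ± 0.15, adjusted p = 0.0729). With Klf4 these were 4 members of 6 with higher and non-overlapping values in WT, and Klf3 was lower, beside 41.7% of all genes not overlapping, 23.4% higher and 18.2% lower. In KO the transfer values of Klf6 (2014 and 2363 CPM), Klf10 (112.1 and 120.9 CPM) and Klf13 (352.4 and 407.9 CPM) overlapped with lean KO. That left Klf4, higher, and Klf3, lower, as the 2 of 6 members apart in KO, beside 34.7% of all genes not overlapping, 20.6% higher and 14.2% lower. Klf2 overlapped in both genotypes, at 21.74 and 33.42 CPM in WT and 22.51 and 40.42 CPM in KO after transfer.

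Between the genotypes after transfer edgeR called no member, beside 0.171% of all genes, and DESeq2 called none (0.487%). There was 1 member at an unadjusted p under 0.05, beside 6.53% of all genes. That member was Klf13, the Ccl5 activator, with 584.2 and 483.4 CPM in WT and 352.4 and 407.9 CPM in KO. It was the only 1 of the 6 whose ranges did not overlap, beside 35.8% of all genes not overlapping and 17.3% lower (-0.50 ± 0.13, edgeR adjusted p = 0.48). Klf3, Klf4 and Klf6 differed by -0.64 ± 0.68, 0.01 ± 0.25 and -0.11 ± 0.14.

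The immediate early genes stood higher after transfer as well. Their summed level was 43810 and 54450 CPM in WT and 48150 and 55510 CPM in KO, above every diet library. Against lean diet 17 of 24 rose in WT and 4 of 24 in KO, with none lower. Of all genes, 4.63% were called higher in WT, and in KO 151 of the 12523 genes tested were called higher. Heat shock genes summed to 8363 ± 1011 CPM after transfer in WT against 6387 ± 98.44 CPM on lean diet, with 2 of 11 called, Dnaja1 (0.70) and Hspa5 (0.47). Of the 10 Treg identity genes 5 rose in WT and 1, Il2ra, in KO. Markers of cytotoxic and NK cells summed to 252.2 CPM in lean WT and 103.7 CPM in transfer WT, and to 236.1 and 45.94 CPM in KO, in the direction of Klf3, with Cd8a at 0 in both lean groups and in transfer WT, Ncr1 at 0 in lean WT and Klrb1c at 0 in transfer KO. In WT the sums of endothelial markers (62.3 to 77.06 CPM on lean diet, 38.95 and 44.13 CPM after transfer), B cell markers (9.97 to 16.33 against 6.34 and 3.88 CPM) and stromal markers (2.80 to 4.59 against 1.58 and 1.48 CPM) were also lower without overlap. In KO those 3 sums overlapped. Their part in the values of Klf3, Klf4 and Klf6 was not tested.

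The genes nearest to Klf3 over the 18 diet libraries were Cmah (Pearson's r of 0.896), the enzyme that makes N-glycolylneuraminic acid, Gypc (0.867), a membrane skeleton glycoprotein, and Frmd6 (0.856), a FERM domain protein. Within groups the values were 0.907, 0.839 and 0.757, so libraries of a group that were high in Klf3 were high in these genes too. The transfer libraries were not used in that search. There, Frmd6 was at 4.19 ± 1.12 CPM in WT and 1.86 ± 2.36 CPM in KO against 23.08 ± 8.99 and 9.92 ± 6.05 CPM on lean diet, and it fell in both genotypes (-2.50, edgeR adjusted p = 0.00501, and -2.52, adjusted p = 0.0246). Cmah fell in KO (-1.76, adjusted p = 0.0327) and had a value of -1.24 in WT (adjusted p = 0.0644). Gypc did not pass in either (-0.31, adjusted p = 0.663, and 0.22, adjusted p = 0.824). Like Klf3, Frmd6 was thus called lower after transfer in both genotypes, Cmah in 1 and Gypc in none.

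**Figure D5:**
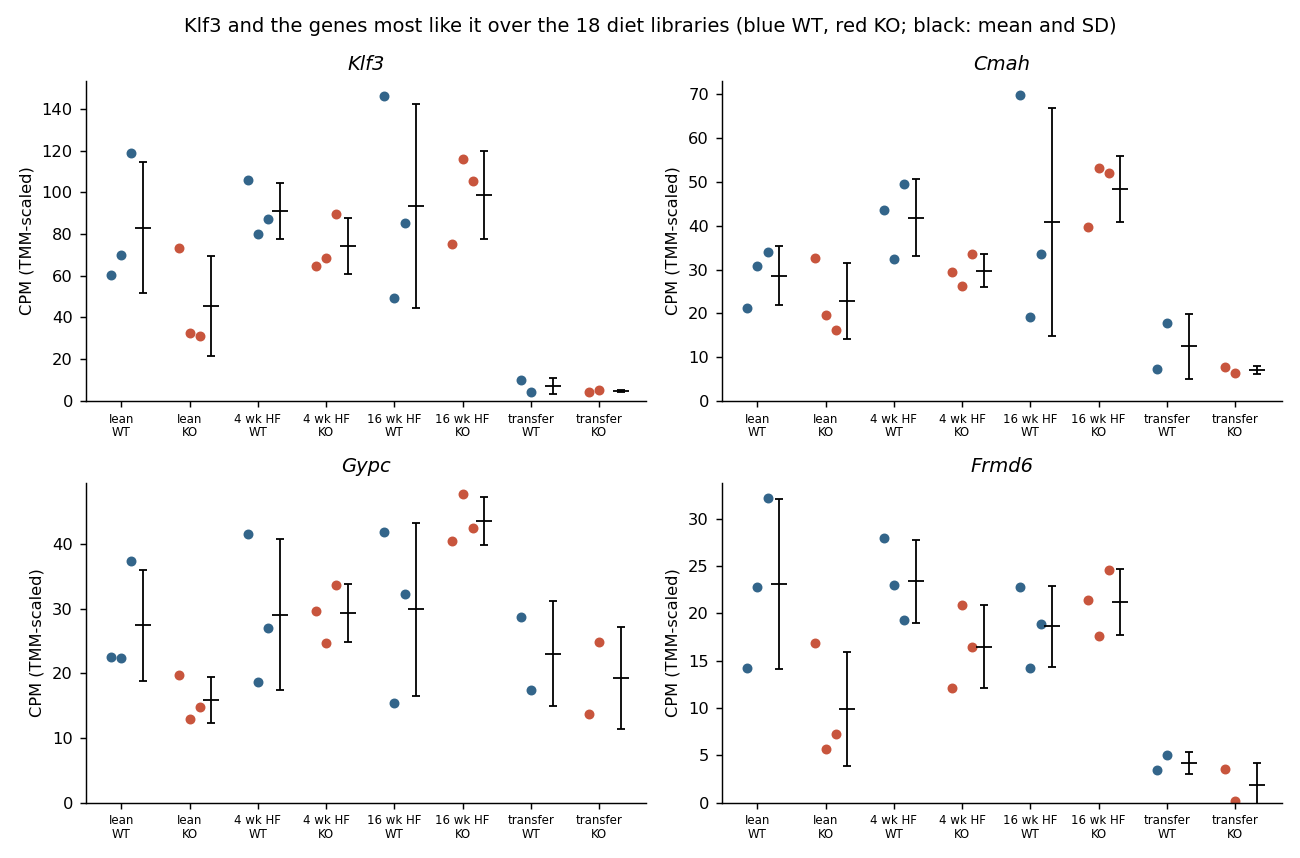
CPM of Klf3 and of the 3 genes nearest to it in pattern over the diet libraries, in each of the 22 libraries (blue WT, red KO) with the mean and SD of each group in black; HF is high-fat diet. Klf3 and Frmd6 were lower in all 4 transfer libraries than in all 18 diet libraries, and Gypc was not.

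Among the other KLF genes, Klf16 and Klf7 changed. Klf16, a repressor of the same family, was at 23.14 ± 6.73 CPM in lean KO and 8.89 ± 1.75 CPM in 16 week KO (SD, n = 3 each) and fell (-1.38 ± 0.39, edgeR adjusted p = 0.0371), as it did in the mean of genotypes (-1.18 ± 0.27, adjusted p = 0.0108). Its value in WT was -0.98 ± 0.38 (adjusted p = 0.433). Klf7 rose after transfer in WT, from 37.62 ± 8.40 to 99.01 ± 16.40 CPM (1.34 ± 0.32, adjusted p = 0.0106), and was at 84.58 ± 3.65 CPM in transfer KO (0.64 ± 0.32, adjusted p = 0.317). Exons of Gm26649 on the opposite strand overlap 3196 exonic bases of Klf7, so part of its counts may belong to that gene. With the members, 3 of the 12 measured KLF genes fell and none rose in KO at 16 weeks, beside 3.59% of all genes called lower. In WT after transfer 2 rose and 1 fell, beside 4.63% of all genes called higher and 5.84% lower. The SP genes, the nearest relatives of the KLFs, had 4 measured of 9 in the diet fit and none called in any comparison. Sp3, the highest of them, stayed at 90.06 to 182.2 CPM in all libraries.

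The pathway that induces Klf2 and Klf4 through ERK5, MEF2 and FOXO proteins was represented by 7 measured genes of 8. In KO Tregs at 16 weeks 1 of 7 fell and none rose: Foxo3, a forkhead factor of quiescent cells, went from 90.35 ± 6.82 to 56.61 ± 9.41 CPM (-0.68 ± 0.20, edgeR adjusted p = 0.0456). The median of the 7 was -0.67 and that of all genes 0.0015, of which 3.59% were called lower. The cofactors through which KLFs act (CtBP, SIN3, histone deacetylases and acetyltransferases) numbered 10, all measured, and none was called in any comparison. Crebbp and Ep300, the highest of them, stood at 131.7 to 215.5 and 132.7 to 214.2 CPM. Of 5 ubiquitin ligases and adaptors known to mark KLF proteins for degradation, 1 was called, Itch, which fell after transfer in WT (-0.94 ± 0.24, adjusted p = 0.0159). There, 5.84% of all genes were called lower.

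Genes known as targets of KLF2 in lymphocyte homing did not move as a group. In KO Tregs at 16 weeks, S1pr1, the egress receptor, rose (from 162.2 ± 19.90 to 338.8 ± 32.12 CPM, 1.06 ± 0.22, edgeR adjusted p = 0.00634) while the value of Klf2 was lower. Cd69, the antagonist of S1PR1 and also an immediate early gene, fell from 1311 ± 139.7 to 406.0 ± 47.80 CPM (-1.69 ± 0.17, adjusted p = 5.15e-06). The other 4 of the 6 were not called, in a comparison in which 5.95% of all genes were. After transfer Ccr7, the lymph node homing receptor, fell in KO, where 1 of the 2 transfer libraries had no count and the other was at 1.93 CPM against 50.19 to 65.31 CPM on lean diet (adjusted p = 0.0136). Cd69 rose in WT (1.10 ± 0.18, adjusted p = 0.000375), and Klf2 itself was not called in either genotype. Between 16 and 4 weeks Cd69 fell in KO (-0.91 ± 0.16, adjusted p = 0.00683), and in the mean of genotypes Cd69 (-0.69 ± 0.11, adjusted p = 0.003), S1pr4 (-0.36 ± 0.09, adjusted p = 0.0432) and Itgb7 (-0.44 ± 0.11, adjusted p = 0.0465) fell.

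A set of 3 genes known as targets of single members were followed: Lgals3, repressed by KLF3, Cdkn1a, activated by KLF4 and KLF6, and Ccl5, activated by KLF13. In KO Tregs at 16 weeks Lgals3 (galectin 3) was at 533.1 ± 15.66 CPM on lean diet and 83.26 ± 14.06 CPM after 16 weeks (-2.68 ± 0.32, edgeR adjusted p = 4.61e-05). Cdkn1a, the cell cycle inhibitor p21, went from 304.4 ± 27.28 to 114.0 ± 12.94 CPM (-1.42 ± 0.20, adjusted p = 0.000178). So 2 of the 3 fell, beside 3.59% of all genes called lower. After transfer in WT, Lgals3 rose from 331.9 ± 126.4 to 876.5 ± 25.17 CPM (1.34 ± 0.30, adjusted p = 0.00645) and Cdkn1a from 161.7 ± 28.72 to 428.2 ± 16.97 CPM (1.35 ± 0.20, adjusted p = 0.000203). In both comparisons Cdkn1a was called in the direction of Klf4, and Lgals3 in the direction opposite to the value of Klf3. After transfer in KO, where Klf3 fell and Klf4 was not called, Cdkn1a rose (0.79 ± 0.20, adjusted p = 0.0303) and Lgals3 was not called (0.94 ± 0.30, adjusted p = 0.0908). Ccl5 fell after transfer, from 266.9 ± 55.76 to 4.33 ± 4.84 CPM in WT (-5.91 ± 0.69, adjusted p = 8.93e-06) and from 247.3 ± 77.24 to 17.36 ± 8.22 CPM in KO (-3.89 ± 0.58, adjusted p = 0.000289). Klf13 was not called in either, and in WT its value was higher (0.41 ± 0.15, edgeR adjusted p = 0.0729) where that of Ccl5 was lower. Nkg7, a granule gene of cytotoxic cells, fell too (-1.79 ± 0.49 in WT, adjusted p = 0.0203, and -2.73 ± 0.52 in KO, adjusted p = 0.00354). Whether the KLF members acted on Lgals3, Cdkn1a or Ccl5 in these cells was not tested.

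Of 9 quiescence genes, all measured, 2 fell in KO Tregs at 16 weeks and none rose, Btg2 (-0.99 ± 0.14, edgeR adjusted p = 0.000243) and Cdkn1a. After transfer in WT 3 of the 9 rose, Btg2, Cdkn1a and Btg1 (0.73 ± 0.18, adjusted p = 0.0111). Of all genes, 3.59% were called lower in the first comparison and 4.63% higher in the second. Btg2, an antiproliferative gene also induced by stimulation, was at 1036 ± 202.1 CPM in lean WT, 5018 ± 549.2 CPM in transfer WT and 1954 ± 415.7 CPM in transfer KO. It rose with transfer in WT (2.22 ± 0.16, adjusted p = 5.03e-09) and was lower in KO than in WT after transfer (-1.37 ± 0.14, adjusted p = 0.00462), where no KLF member was called.

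The TGF-beta and SMAD list, the pathway that induces Klf10, had 11 genes, all measured. Furin, the protease that matures TGF-beta, changed most often: it fell in KO at 16 weeks (from 395.6 ± 35.20 to 110.7 ± 4.88 CPM, -1.84 ± 0.27, edgeR adjusted p = 0.000326) and rose after transfer in WT (1.44 ± 0.27, adjusted p = 0.00175) and KO (1.12 ± 0.27, adjusted p = 0.0201). It was higher in KO than in WT at 4 weeks (416.4 ± 176.1 against 146.2 ± 24.11 CPM, adjusted p = 0.0269), in the mean of the diets (1.09 ± 0.15, adjusted p = 0.00108) and after transfer (1.05 ± 0.11, adjusted p = 0.00462). Tgfb1, the ligand, rose after transfer in WT (0.84 ± 0.25, adjusted p = 0.0367), Skil, a SMAD repressor, in WT (0.63 ± 0.17, adjusted p = 0.0218) and KO (0.66 ± 0.17, adjusted p = 0.032), and Smad2 fell in KO (-0.89 ± 0.19, adjusted p = 0.00929). Klf10 itself was called in none of the 19 comparisons.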

How the data were processed

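The deposited file holds whole-number counts per gene for 22 libraries. Per the submitters' processing notes the authors aligned reads with STAR 2.7.3a to mm10 and counted with featureCounts, whose version, strand setting and annotation were not given in the sources used here, and no scaling of the deposited counts is stated or seen. Per the labels' protocols, cDNA was made with an oligo(dT) primer, amplified and tagmented, which does not mark strand, and read as pairs of 38 bases. After TMM scaling, the quasi-likelihood test of edgeR 4.0.16 was run in R 4.3.3, with 1 mean per group, a low-count filter (minimum count 10), Benjamini-Hochberg adjustment over all genes tested and a threshold of 0.05. The 18 diet libraries were fitted together (11698 genes), the 4 transfer libraries alone (11715 genes) and all 22 for transfer against lean diet (12523 genes), in 19 comparisons. Groups came from the labels. The members and the gene lists were chosen with earlier results of these data known. Named were the 6 members, the measured KLF genes, up to 4 called genes per list and comparison (or its most abundant genes) and the 3 genes of most like pattern per member, without pseudogenes, receptor segments, Rik clones or predicted genes. The transfer and 16 week comparisons with lean diet share the lean libraries. Fits were tested on simulated data. Alternatives were DESeq2 1.42.0, other scaling, no filter, a replicate block, fewer or more libraries in a fit, and leaving out each library. DESeq2 was given all genes with counts and filtered on its own, so its shares, taken over the genes of the edgeR fit, are approximate. Replicate numbers did not pair the libraries (correlation of deviations -0.124 to 0.138 over 11 pairs), and no pair of replicates was a duplicate within counting noise. Of the symbols, 96.2% were found in GENCODE M21. The result of 1 gene of the homing list is not reported here.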

Additional observations from a re-analysis of the deposited data

How the results depend on the processing

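Over the 6 members and 19 comparisons (114 results), 1513 of 1560 fits under other settings left the call as it was, 15 lost a call, 32 gained one and none reversed a called direction; 93 changed the sign of a value called in neither fit. The cause of these changes was not tested. Counts of members called moved as follows. With no low-count filter they were 1 at 16 weeks against lean diet in WT, 1 at 16 against 4 weeks in KO and in the mean, 2 at 4 weeks against lean diet in KO and 1 in the mean, 1 and 2 for the interactions of 16 with 4 weeks and of 16 weeks with lean diet, 1 for KO against WT at 16 weeks, 2 on lean diet and 1 after transfer, and 4 for transfer against lean diet in WT. With DESeq2 they were 1 at 16 against 4 weeks in KO, 2 at 4 weeks against lean diet in KO and 1 in the mean, and 1 for the interaction of 16 weeks with lean diet. Fits of only the 2 groups compared called 1 at 16 against 4 weeks in KO and 1 at 4 weeks against lean diet in KO. Leaving out 1 library, which was done for the comparisons that hold it, gave 1 to 3 members at 16 weeks against lean diet in the mean of genotypes, 2 to 3 in KO, and 1 to 3 for transfer against lean diet in WT. The replicate block left 1 member at 16 weeks against lean diet in the mean of genotypes, as Klf4 (adjusted p = 0.0627) was lost, and gained Klf3 in KO (1.16, adjusted p = 0.0483). Klf3 in KO at 16 weeks also passed with DESeq2 (adjusted p = 0.0249), in the fit of 2 groups (adjusted p = 0.0287), with no filter (adjusted p = 1.3e-06) and without lean KO replicate 1 (adjusted p = 0.0163), which made 3 members there. In the mean of genotypes Klf4 was also lost with no filter (adjusted p = 0.054), Klf3 passed with no filter (adjusted p = 0.000159), without 16 week WT replicate 2 (adjusted p = 0.0295) and without lean KO replicate 1 (adjusted p = 0.0313), and Klf10 passed without 16 week WT replicate 2 (adjusted p = 0.0224). Counts over all genes also moved, for example for KO against WT on lean diet from 5 to 23 with DESeq2 and 135 with no filter, and at 16 weeks against lean diet in KO from 696 to 894 and 1085. Depth limits the low members most: Klf3 after transfer rests on 19 to 44 counts per library and Klf4 after 16 weeks in KO on 28 to 59.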
